A study of Mus musculus with 12 samples.

Results

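The genes described here encode the machinery that makes microRNAs and lets them silence messenger RNAs. They were chosen by symbol: Drosha, Dgcr8, Xpo5, Dicer1, Tarbp2, Ago1, Ago2, Tnrc6a, Tnrc6b and Tnrc6c. All 10 were found among the 23256 genes of the expression table, Ago1 and Ago2 under their older symbols Eif2c1 and Eif2c2. All 10 had a mean of at least 1 RPKM (reads per kilobase of transcript, scaled by library depth) over the libraries, the level above which genes were tested, together with 13273 genes in all.

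MicroRNAs are cut from long primary transcripts in the nucleus by the Microprocessor, in which the nuclease Drosha works with the RNA-binding protein Dgcr8. Exportin-5, encoded by Xpo5, carries the hairpin to the cytoplasm, where the nuclease Dicer, with its double-stranded RNA-binding partner TRBP (Tarbp2), cuts it to a short duplex. An Argonaute protein keeps a single strand of that duplex as its guide, and the GW182 proteins (Tnrc6a, Tnrc6b and Tnrc6c) link Argonaute to the enzymes that shorten the poly(A) tail and repress translation. In neurons this pathway tunes differentiation, synaptic proteins and responses to stress.

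The study injected mouse zygotes and measured the adult offspring. Zygotes of the C57/Bl6:129S6/SvEvTac hybrid background received 9 miRIDIAN mimics, synthetic duplex forms of microRNAs, in phosphate-buffered saline, each at 0.11 ng/uL and summing to 1 ng/uL (miR group, replicates 1 to 6), or the saline alone (PBS group, replicates 7 to 12). Every animal of both groups was therefore a microinjected zygote, carried by a surrogate CD1 dam, and was sampled as a male of 18 to 20 weeks. Litters are not given in the labels, and the injected RNA itself was not assayed by these poly(A) libraries. Each library came from a needle punch of 1.0 mm through 2 slices of 300 µm at the paraventricular nucleus (PVN), the hypothalamic nucleus that holds the vasopressin, oxytocin and corticotropin-releasing hormone neurons, and so mixes neurons with glia and vessel cells. In such tissue, fewer cells of a type and less RNA per cell cannot be told apart.

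The mature microRNAs named for the mimics are shown because the machinery acts on such guides, and because a guide finds its targets through its seed, bases 2 to 8, set in capitals. They come from the RefSeq table for build GRCm38.p6. The labels name the arm of miR-532-3p and miR-193-5p only, so the arms below are, for the others, those that usually carry the name. The mimics miR-375 and miR-193-5p are named only. The 2 miR-30 members share a seed, which leaves 6 different seeds.
miR-29c-3p: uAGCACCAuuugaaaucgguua
miR-30a-5p: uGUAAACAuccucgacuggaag
miR-30c-5p: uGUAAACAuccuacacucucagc
miR-32-5p: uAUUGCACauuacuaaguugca
miR-204-5p: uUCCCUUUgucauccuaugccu
miR-532-3p: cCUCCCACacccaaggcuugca
miR-698-3p: cAUUCUCGuuuccuucccu

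The machinery's own messenger RNAs hold matches to these seeds. The 3′ untranslated region of each gene's GENCODE M21 transcript (GRCm38) was searched, on the transcript strand, for the 7 bases that pair with each seed: TGGTGCT for miR-29c-3p, TGTTTAC for both miR-30 members, GTGCAAT for miR-32-5p, AAAGGGA for miR-204-5p, GTGGGAG for miR-532-3p and CGAGAAT for miR-698-3p. In all, 26 matches lay in 8 of the 10 genes. Tarbp2 and Drosha, whose 3′ regions of 334 and 168 bases were the shortest, held no match to any of the 6 seeds. Tnrc6b, with 11609 bases, held 7, Tnrc6a, with 2345 bases, held 5, Ago1 held 4, and Dicer1 and Ago2 held 3 each. A match is a description of letters only.

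The miR-30 match was the only one of the 6 that stood in all 3 GW182 genes. It stood in 5 of the 10 genes, Ago1, Ago2, Tnrc6a, Tnrc6b and Tnrc6c, against 15.2% of the 12200 tested genes with such a region. All 5 regions were longer than the median of 1018 bases over the tested genes, and matches were more frequent in long regions: of tested genes with a region within 25% of the length of Tnrc6b, 65.3% held the miR-30 match, and of those like Ago2 58.2% did. For those like Ago1 and Tnrc6c that share was 37.6% and 25.2%. For Tnrc6a that share was 22.8%, and Tnrc6a held 4 matches. They are shown with the bases that pair with the seed in capitals, in the order of their place in the region, at chr7:123193385-123193391, chr7:123193673-123193679, chr7:123193712-123193718 and chr7:123194472-123194478 on the plus strand of GRCm38.
Tnrc6a, base 434: tgttccagtgtagaTGTTTACt
Tnrc6a, base 722: acggtgaaccttctTGTTTACa
Tnrc6a, base 761: tttgagaaaaaaaaTGTTTACt
Tnrc6a, base 1521: cagtggcttttaacTGTTTACa
The miR-29c match stood in Xpo5, Dicer1 and Ago1 (13.9% of tested genes), the miR-204 match in Dgcr8, Dicer1, Ago1 and Tnrc6b (15.0%), and the miR-532-3p match in Dicer1, Tnrc6a and Tnrc6b (14.6%). Among tested genes with a region within 25% of a gene's length, the miR-29c match stood in 13.5% (Xpo5), 32.7% (Dicer1) and 38.0% (Ago1). The miR-204 match stood in 16.6% (Dgcr8), 35.9% (Dicer1), 38.8% (Ago1) and 71.4% (Tnrc6b). For the miR-532-3p match these shares were 30.2% (Dicer1), 21.9% (Tnrc6a) and 59.2% (Tnrc6b). None of the 10 genes held the miR-32 match (7.15%) or the miR-698 match (1.61%).

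The libraries held 22.8 to 45.1 M reads, as read from the smallest steps between deposited values. The PVN label was borne out by its markers: Avp, Oxt, Crh, Trh, Sim1 and Otp were all present, with Oxt at 1295 RPKM or more and Sim1 at 5.08 RPKM or more in every library. Markers of neurons, astrocytes, microglia, oligodendrocytes and endothelium were present too. Of the choroid plexus markers, Ttr reached at most 0.676 RPKM, below the level for testing, and Folr1 and Kl at most 1.39 and 1.27 RPKM. Clic6 was the highest of them, at 4.59 to 7.19 RPKM. None of the 34 tested genes of these 35 PVN and cell type markers passed between groups, and neither did any of all 13273 tested genes (0%). All 5 astrocyte and all 5 oligodendrocyte markers were higher in miR, with median log2 differences of 0.19 and 0.22. All 5 endothelial markers were lower, with a median of -0.13, and the other lists held markers of both signs. Some libraries stood apart. The summed level of 5 noncoding RNAs known for staying in the nucleus (Meg3, Miat, Snhg11, Malat1 and Neat1) was 413, 788, 472 and 591 RPKM in PBS replicates 8, 9, 10 and 12, against 146 and 165 RPKM in PBS replicates 7 and 11. The miR group ran from 141 to 209 RPKM. Summed astrocyte markers followed the same division, at 338 to 365 RPKM in those 4 libraries and 400.3 to 435 RPKM in the other 8. PBS replicate 7 stood apart in another way, with summed oligodendrocyte markers at 1361 RPKM against 370.3 to 864 RPKM in the other 11 libraries. No miR library shared the state of PBS replicates 8, 9, 10 and 12, so it and the PBS label cannot be told apart in those 4, and tested genes named below that follow this division are given with and without them.

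The machinery spanned a 10.4-fold range of levels, from Drosha at the top to Tarbp2 at the bottom. RPKM is a value per length, so it was used to order the genes. The members' transcripts run from 1523 to 17332 bases. Read coverage along these poly(A)-selected transcripts and the lengths used as divisor were not checked. Drosha measured 24.0 ± 1.024 RPKM (SD over the 12 libraries), above every other member in all libraries. Then came Tnrc6a (17.3 ± 1.52), Ago2 (17.1 ± 1.77), Xpo5 (15.3 ± 1.034), Ago1 (12.9 ± 0.751) and Tnrc6c (9.59 ± 0.687 RPKM). Dicer1 (7.80 ± 0.661), Tnrc6b (7.53 ± 0.607) and Dgcr8 (7.45 ± 0.439 RPKM) lay close together, and Tarbp2 followed at 2.31 ± 0.810 RPKM. Tnrc6a exceeded Ago2 in 7 of 12 libraries, Dicer1 exceeded Tnrc6b in 7 and Tnrc6b exceeded Dgcr8 in 6, so the order within these pairs was not fixed. The order held in 12 of 12 libraries at all other neighbouring steps, except that Ago2 exceeded Xpo5 in 11. Against the median tested gene, at 9.08 RPKM, 6 members lay above and 4 below.

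**Figure D1:**
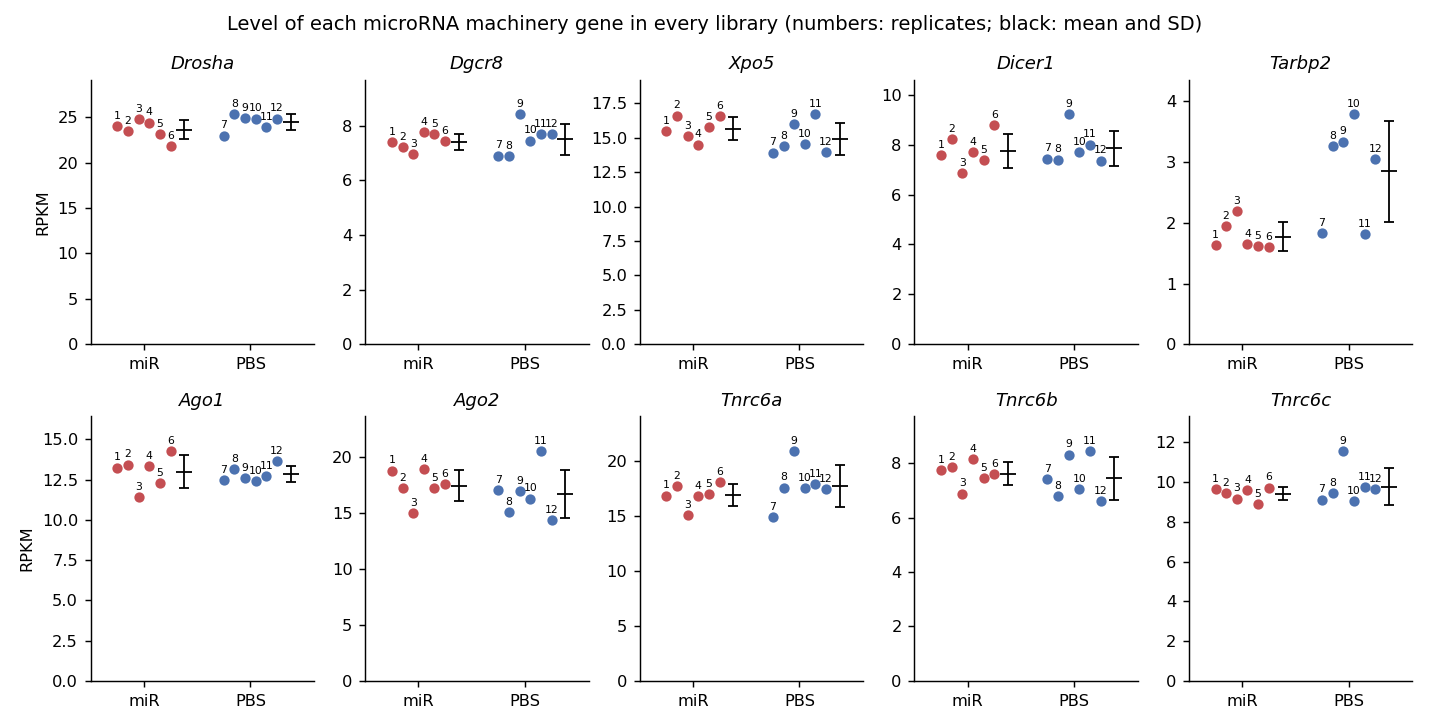
Level of each of the 10 machinery genes in every library. Points are libraries (miR in red, PBS in blue, numbered by replicate), the vertical axis is RPKM from 0, and the black mark gives the mean and SD of 6 libraries. For Tarbp2, PBS replicates 8, 9, 10 and 12, at 3.05 to 3.79 RPKM, lie above the other 8 libraries, and for Tnrc6a and Tnrc6c PBS replicate 9 is the highest. The groups overlap in every panel.

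No machinery gene passed the test between miR and PBS. With limma, 0 of the 10 members had an adjusted p under 0.05, as did 0 of all 13273 tested genes (0%). At an unadjusted p under 0.05 there was 1 member, Tarbp2, against 20.3% of all tested genes. In none of the 10 were the groups fully separated, as they were in 0.497% of tested genes. Of the members, 6 were at a lower value in miR, where 47.1% of all tested genes were, and 4 at a higher one. Their median log2 difference was -0.02, and that over all tested genes was 0.01. For the 9 members other than Tarbp2 the ratio of means ran from 0.956 to 1.05, and the 95% intervals of the difference reached no further than 0.867-fold and 1.18-fold on the scale analysed, log2(RPKM + 0.5). That scale understates changes of low genes.

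**Figure D2:**
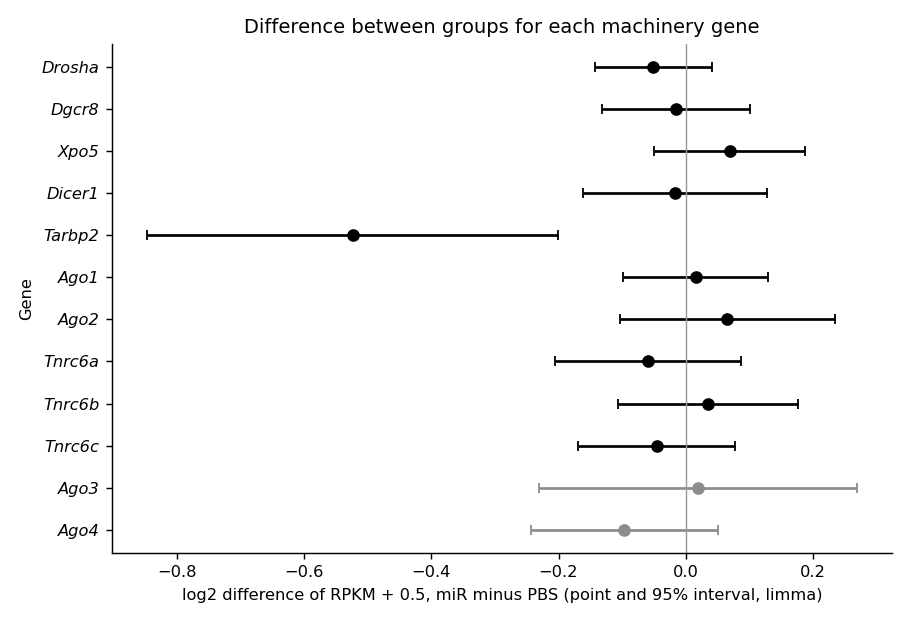
Difference between miR and PBS for the 10 machinery genes (black) and for Ago3 and Ago4 (grey). The horizontal axis is the log2 difference of RPKM + 0.5, miR minus PBS, with its 95% interval from limma. The interval of Tarbp2, centred on -0.52, is the only one that leaves out 0, without passing an adjusted p of 0.05.

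Of the Microprocessor genes, Drosha (chromosome 15, 12754570 to 12865046, plus strand, in mm9 as all gene positions below) measured 24.0, 23.5, 24.8, 24.4, 23.1 and 21.8 RPKM in miR replicates 1 to 6. In PBS replicates 7 to 12 it measured 23.0, 25.3, 24.9, 24.8, 23.9 and 24.8 RPKM. Both groups fell within a 1.16-fold range, and the log2 difference was -0.05 (standard error 0.04, adjusted p = 0.499 in limma). Its residual spread was lower than that of 97.8% of tested genes, which makes Drosha the steadiest member.

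Dgcr8 (chromosome 16, 18254058 to 18289261, minus strand) measured 7.40, 7.22, 6.94, 7.76, 7.68 and 7.44 RPKM in miR. In PBS it measured 6.90, 6.88, 8.41, 7.45, 7.68 and 7.68 RPKM. The PBS values enclosed all miR values (log2 difference -0.01, adjusted p = 0.892 in limma). The ratio of Drosha to Dgcr8 was 3.19 ± 0.224 in miR and 3.27 ± 0.244 in PBS (SD, n = 6 each), with an exact permutation p = 0.567, 2-sided over all labelings of the libraries. It was 1 of 6 ratios compared in this way, and its p adjusted over the 6 was 0.675. Dgcr8 overlaps the tRNA methyltransferase gene Trmt2a on the opposite strand by 808 bases. Trmt2a measured 11.03, 10.5, 11.1 and 11.6 RPKM in PBS replicates 8, 9, 10 and 12 and 7.36 to 8.82 RPKM in the other 8 libraries, so the 4 PBS libraries that stood apart did so in this neighbour and not in Dgcr8. The log2 difference of Trmt2a was -0.25 (adjusted p = 0.204 in limma). Without those 4 libraries it was 0.06 (adjusted p = 1.00 in limma, a value all 10 members had in that fit).

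Xpo5 (chromosome 17, 46339804 to 46379248, plus strand), the exporter of precursor hairpins, measured 15.5, 16.6, 15.1, 14.5, 15.8 and 16.6 RPKM in miR. In PBS its values were 13.9, 14.4, 16.0, 14.6, 16.7 and 13.99 RPKM. All 6 miR values lay above the PBS median, but PBS replicate 11 was the highest of all 12 libraries. PBS replicates 9 and 10 lay inside the miR range. Its log2 difference of 0.07 was the largest among the 9 members besides Tarbp2, with standard error 0.06 and adjusted p = 0.476 in limma.

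Dicer1 (chromosome 12, 105925952 to 105990162, minus strand), which encodes the cytoplasmic nuclease, measured 7.57, 8.21, 6.86, 7.71, 7.39 and 8.78 RPKM in miR. It measured 7.44, 7.40, 9.22, 7.69, 8.002 and 7.36 RPKM in PBS. PBS replicate 9 was the highest library, and the rest of both groups overlapped (log2 difference -0.02, standard error 0.07, adjusted p = 0.901 in limma).

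Tarbp2, the gene of Dicer's partner TRBP (chromosome 15, 102348623 to 102354107, plus strand), was the member with the widest spread. It measured 1.63, 1.95, 2.19, 1.66, 1.61 and 1.6 RPKM in miR replicates 1 to 6. In PBS replicates 7 to 12 it measured 1.83, 3.26, 3.34, 3.79, 1.81 and 3.05 RPKM. PBS replicates 8, 9, 10 and 12 lay above all miR libraries, while PBS replicates 7 and 11 lay inside the miR range. The means were 1.77 ± 0.242 (miR) and 2.85 ± 0.832 RPKM (PBS, SD, n = 6 each), a ratio of 0.623. On the log2 scale the difference was -0.52 (standard error 0.15, 95% interval -0.85 to -0.20), with unadjusted p = 0.00368 and adjusted p = 0.174 in limma. Its coefficient of variation over the 12 libraries was 35.1%, against 4.26% to 10.4% in the other 9 members.

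These are the same 4 PBS libraries that stood apart in the nuclear noncoding RNAs and in astrocyte markers, and the part of astrocyte content in the Tarbp2 difference was not tested. In PBS replicates 8, 9, 10 and 12 Meg3, an imprinted noncoding RNA, stood at 158, 316, 190.0 and 245 RPKM, against 49.9 to 68.1 RPKM in the other 8 libraries. With the score of the 5 noncoding RNAs as a covariate, the Tarbp2 difference was -0.12 (adjusted p = 1.00 in limma). Without PBS replicates 8, 9, 10 and 12 it was -0.04 (adjusted p = 1.00 in limma), with only 2 PBS libraries left. In each of these fits all 10 members had that same adjusted p, so it says nothing particular to Tarbp2. Without PBS replicate 7 Tarbp2 passed in limma at -0.62 (adjusted p = 0.0273), without PBS replicate 11 at -0.62 (adjusted p = 0.0388), and without both at -0.77 (adjusted p = 0.000186). PBS replicate 7 is the library with the high oligodendrocyte markers, whose part in these values was not tested. With library weights it passed at -0.69 (adjusted p = 0.00471 in limma). In those 4 fits, in that order, 6.85%, 3.23%, 23.4% and 22.9% of all tested genes passed, and 5.03%, 2.45%, 11.5% and 12% passed with a lower value in miR, so Tarbp2 was called there among many genes. The libraries left out in pairs or sets were picked after their values were seen, so those p-values are no independent support.

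**Figure D3:**
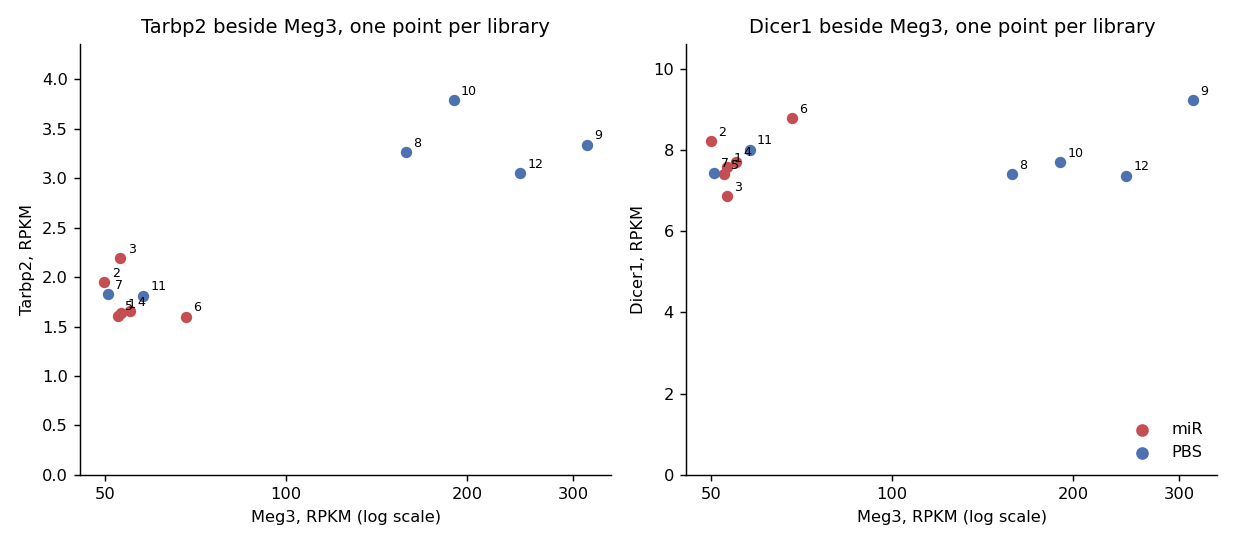
Tarbp2 (left) and Dicer1 (right) in RPKM from 0, against Meg3 in RPKM on a log axis, with a point for each of the 12 libraries (miR in red, PBS in blue, numbered by replicate). PBS replicates 8, 9, 10 and 12 lie apart at 158 to 316 RPKM of Meg3; they are also the highest for Tarbp2, whereas the Dicer1 values on both sides of the gap overlap, with the highest, PBS replicate 9, on the high Meg3 side.

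The Tarbp2 row rests on fewer reads than the other members, about 55.4 to 220.0 per library by its transcript length of 1523 bases, against 731 or more for each of the others. A second deposited row at the same position, without a symbol but with a Tarbp2 accession, had 1.08 to 1.154 times the level in each library. Its means were 1.997 ± 0.300 (miR) and 3.16 ± 0.855 RPKM (PBS, SD, n = 6 each), with a log2 difference of -0.52 (adjusted p = 0.174 in limma). Npff, the gene of the neuropeptide FF precursor, lies on the opposite strand and converges on Tarbp2, with 162 bases between their 3′ ends. Npff lay below the level for testing, so no fitted difference is given with or without these libraries, and it measured 1.85, 1.29, 2.17 and 1.62 RPKM in PBS replicates 8, 9, 10 and 12, 0.577 and 0.374 RPKM in PBS replicates 7 and 11, and at most 0.5996 RPKM in miR. Map3k12, a kinase gene 1187 bases upstream on the opposite strand, averaged 30.7 ± 1.24 (miR) and 33.1 ± 3.15 RPKM (PBS, SD, n = 6 each). Tarbp2 also had the shortest transcript of the 10 and the highest GC content, 57.5%, against 46.8% to 52.8% in the others and a median of 50.6% over tested genes. With libraries corrected for their trend with GC content its difference was -0.40 (adjusted p = 0.296 in limma).

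Set against its partner within each library, Tarbp2 was 0.231 ± 0.0467 of the Dicer1 level in miR and 0.364 ± 0.108 in PBS (SD, n = 6 each). Across miR libraries the ratio ran from 0.182 to 0.319, and it was 0.245 and 0.226 in PBS replicates 7 and 11, and 0.441, 0.362, 0.493 and 0.414 in PBS replicates 8, 9, 10 and 12. The log2 difference of this ratio was -0.62, with an exact permutation p = 0.0195 and a p adjusted over the 6 ratios of 0.117. Without PBS replicates 8, 9, 10 and 12 it was -0.05 (exact permutation p = 0.75). With 2 PBS libraries left, the 28 labelings allow no p below 0.0357.

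The Argonaute genes Ago1 (chromosome 4, 126112257 to 126145665, minus strand) and Ago2 (chromosome 15, 72932055 to 73015377, minus strand), of which Ago2 encodes the family's slicing enzyme, did not pass. Ago1 measured 13.2, 13.4, 11.4, 13.3, 12.3 and 14.3 RPKM in miR. Its PBS values were 12.5, 13.2, 12.6, 12.4, 12.7 and 13.6 RPKM. Here the miR group was the more variable and enclosed all PBS values (log2 difference 0.02, adjusted p = 0.887 in limma). Ago2 measured 18.8, 17.2, 15.0, 18.9, 17.2 and 17.5 RPKM in miR. Its PBS values were 17.0, 15.1, 16.9, 16.3, 20.5 and 14.4 RPKM. PBS replicate 11 was the highest and PBS replicate 12 the lowest library (log2 difference 0.07, standard error 0.08, adjusted p = 0.645 in limma).

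Ago2 and Ago1 made up most of the Argonaute messenger RNA per length, 48.0 ± 2.21% and 36.5 ± 2.52% of the sum of the 4 genes (SD over the 12 libraries). Ago3 held 9.18 ± 1.12% and Ago4 6.28 ± 0.654%. Ago3 averaged 3.28 ± 0.422 (miR) and 3.26 ± 0.704 RPKM (PBS), and Ago4 2.12 ± 0.0861 and 2.31 ± 0.265 RPKM (SD, n = 6 each, adjusted p = 0.938 and 0.424 in limma). The ratio of Ago1 to Ago2 was 0.747 ± 0.0450 in miR and 0.780 ± 0.116 in PBS (exact permutation p = 0.597, adjusted over the 6 ratios 0.675).

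The GW182 genes, whose proteins bind Argonaute through glycine-tryptophan repeats, did not pass either. Tnrc6a (chromosome 7, 130267399 to 130338810, plus strand) measured 16.8, 17.7, 15.1, 16.8, 17.0 and 18.1 RPKM in miR. In PBS it read 14.9, 17.6, 20.9, 17.5, 17.9 and 17.4 RPKM. PBS replicate 9 was the highest and PBS replicate 7 the lowest (log2 difference -0.06, adjusted p = 0.627 in limma). Tnrc6b (chromosome 15, 80629040 to 80771516, plus strand) measured 7.75, 7.85, 6.89, 8.16, 7.46 and 7.61 RPKM in miR. Its PBS values were 7.42, 6.80, 8.32, 7.06, 8.45 and 6.61 RPKM. The PBS values enclosed the miR values (log2 difference 0.04, adjusted p = 0.775 in limma). Tnrc6c (chromosome 11, 117515603 to 117624753, plus strand) measured 9.66, 9.45, 9.17, 9.58, 8.89 and 9.73 RPKM in miR. Its PBS values were 9.12, 9.45, 11.6, 9.05, 9.74 and 9.64 RPKM. PBS replicate 9 stood above the other 11 libraries (log2 difference -0.05, adjusted p = 0.661 in limma).

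As shares of the summed GW182 level, Tnrc6a held 49.8 ± 1.17% in miR and 50.7 ± 1.84% in PBS, Tnrc6b 22.4 ± 0.698% and 21.4 ± 1.72%, and Tnrc6c 27.8 ± 0.978% and 28.0 ± 0.865% (SD, n = 6 each). The exact permutation p-values were 0.353, 0.158 and 0.675, and those adjusted over the 6 ratios 0.675, 0.474 and 0.675. The Tnrc6b share was 20.1%, 20.4%, 21.0% and 19.6% in PBS replicates 8, 9, 10 and 12, 23.6% and 23.4% in PBS replicates 7 and 11, and 21.5% to 23.6% in miR. So the PBS libraries that stood high for Tarbp2 were the lowest in Tnrc6b share. Without PBS replicates 7 and 11, the exact permutation p was 0.00476 for the Tnrc6b share (log2 difference 0.15), the smallest that the 210 labelings allow, and 0.0238 for the Tnrc6a share (log2 difference -0.06). As these libraries were left out after the shares were seen, the choice itself fixed that smallest p, and neither value is support. Without PBS replicates 8, 9, 10 and 12 both differences had the opposite sign, -0.07 and 0.04 (exact permutation p = 0.143 and 0.25).

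**Figure D4:**
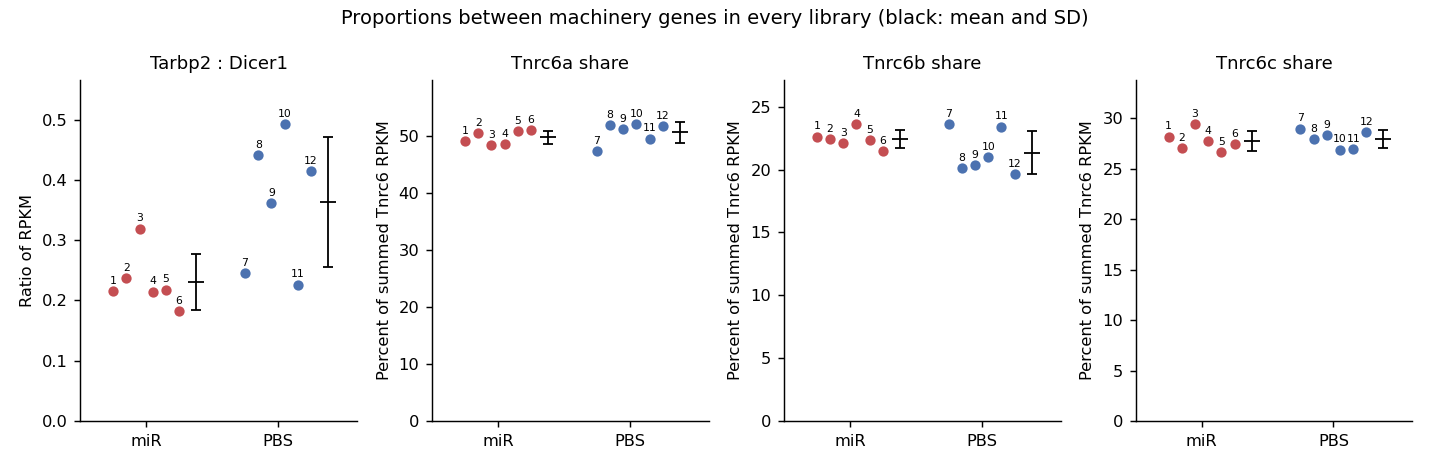
Proportions between machinery genes in every library: the ratio of Tarbp2 to Dicer1 RPKM, and the percent of the summed Tnrc6 RPKM that each Tnrc6 gene holds. Points are libraries numbered by replicate, axes start at 0, and the black mark is the mean and SD of 6 libraries. PBS replicates 8, 9, 10 and 12 are the highest in the first panel, at 0.362 to 0.493, and the lowest in the Tnrc6b panel, at 19.6% to 21.0%.

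The wider pathway was covered by 96 partner genes in 6 lists, of which 90 were tested. None passed in limma, 45 lay higher and 45 lower in miR, and their median log2 difference was -0.0003. Of the 90, 14 lower and 8 higher genes had an unadjusted p under 0.05, where 11.2% of all tested genes were lower and 9.12% higher at that p. Nuclear partners of the Microprocessor numbered 19, of which 12 lay lower and 7 higher in miR. Their median log2 difference was -0.05. The 4 of smallest p were Safb (21.6 ± 1.71 RPKM in miR, 25.4 ± 2.34 RPKM in PBS, SD, n = 6 each), the RNA helicase gene Ddx17 (52.9 ± 1.88 and 63.0 ± 8.38), the RNA methyltransferase gene Mettl3 (7.74 ± 0.534 and 9.21 ± 1.08) and Srrt, which links the cap-binding complex to microRNA processing (29.6 ± 1.85 and 34.9 ± 4.27 RPKM). Each had an adjusted p of 0.174 in limma. In all 4 genes PBS replicates 8, 9, 10 and 12 lay above the other 8 libraries: Safb, for example, was at 27.8, 27.3, 24.1 and 27.6 RPKM there, 23.0 and 22.9 RPKM in PBS replicates 7 and 11 and at most 23.7 RPKM in miR. Without those 4 libraries the log2 differences of Safb, Ddx17, Mettl3 and Srrt, -0.23, -0.24, -0.23 and -0.23 before, were -0.09, -0.08, -0.05 and -0.04.

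The same division ran through most of the partners named here, which were picked by their small p. Of these 24 genes, the 4 PBS libraries lay above all other 8 in 12 and below them in 5, beside 8.22% and 7.94% of all tested genes. Picking by small p favours genes in which these libraries lie apart, so the comparison with all tested genes is no support. Without the 4 libraries the log2 difference was nearer to 0 in 23 of the 24 and had the opposite sign in 7. The same choice favours such a move toward 0. Every adjusted p was 1.00 in limma, as for all 10 machinery genes in that fit, so it does not set these genes apart. The part of the nuclear RNA and astrocyte marker levels in these differences was not tested gene by gene.

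Export and loading partners numbered 12 tested, of which 7 lay higher and 5 lower. Their median log2 difference was 0.04, but it turned to -0.03 once the 5 noncoding RNAs entered the fit as a covariate and to -0.01 without PBS replicates 8, 9, 10 and 12. The chaperone gene Hsp90aa1, whose protein helps load Argonaute, averaged 78.9 ± 4.98 (miR) and 67.6 ± 7.96 RPKM (PBS, SD, n = 6 each, adjusted p = 0.174 in limma). It was at 60.9, 64.4, 63.0 and 66.0 RPKM in PBS replicates 8, 9, 10 and 12, below the other 8 libraries, and its log2 difference of 0.23 was 0.06 without them. Tsn, Ran and Aimp1 followed, with log2 differences of 0.14, 0.08 and 0.10, and of 0.03, -0.02 and 0.04 without those 4 libraries. Ran encodes the GTPase that Exportin-5 needs.

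Argonaute relatives and cofactors numbered 13 tested, of which 6 lay higher and 7 lower. Their median log2 difference was -0.01, and 0.002 without PBS replicate 11, 0.0026 with a filter at 5 RPKM and 0.0031 with library weights. Mov10, an RNA helicase gene, measured 2.64, 2.10, 2.19, 2.05, 1.67 and 2.54 RPKM in miR. Its PBS values were 2.09, 4.10, 3.40, 3.44, 2.31 and 3.95 RPKM. As for Tarbp2, PBS replicates 8, 9, 10 and 12 were the highest, with PBS replicates 7 and 11 inside the miR range (log2 difference -0.44, adjusted p = 0.174 in limma). Without those 4 libraries the Mov10 difference was -0.01. Pum2, an RNA-binding repressor gene, had a log2 difference of 0.20, 2310021P13Rik (Zswim8) -0.28 and Fxr2 -0.14, with adjusted p = 0.177, 0.177 and 0.229 in limma. Without the 4 libraries they were at 0.03, 0.01 and -0.03.

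The list for the removal of poly(A) tails once GW182 is bound held CCR4-NOT and PAN genes, and also Pabpc1, Pabpc4, Paip2, Tob1 and Tob2. From it 17 genes were tested, of which 11 lay higher and 6 lower. The list's median log2 difference was 0.05, and it turned to -0.04 with GC correction, was 0.01 without PBS replicates 8, 9, 10 and 12, and was 0.03 without PBS replicate 10. Pan2, the catalytic subunit gene of the PAN deadenylase, measured 1.93, 2.13, 2.21, 1.896, 1.92 and 2.24 RPKM in miR. In PBS it read 2.17, 3.12, 4.32, 3.83, 1.94 and 3.597 RPKM. The same 4 PBS libraries were highest again (log2 difference -0.48, adjusted p = 0.174 in limma), and without them the Pan2 difference was -0.001. The CCR4-NOT subunit genes Cnot3 and Cnot10 had log2 differences of -0.27 and -0.16, and the deadenylase gene Cnot6 of that complex 0.19. Without the 4 libraries these were -0.04, 0.02 and -0.05.

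Decapping and repression genes numbered 19 tested, of which 7 lay higher and 12 lower. Their median log2 difference was -0.01, and 0.011 without PBS replicate 11, 0.0039 without miR replicate 3 and 0.0062 with quantile-normalized libraries. The 4 of smallest p were the scaffold gene Edc4 (-0.20), Dcp1b (-0.27), the decapping enzyme gene Dcp2 (0.18) and Lsm7 (-0.47), with adjusted p-values of 0.174, 0.174, 0.202 and 0.206 in limma. In PBS replicates 8, 9, 10 and 12 Edc4 was at 13.04 to 13.2 RPKM against at most 10.9 RPKM in the other 8 libraries. Lsm7 was at 2.28 to 2.72 RPKM against at most 1.67 RPKM, and Dcp1b at 4.07 to 4.51 RPKM against at most 3.63 RPKM. Dcp2 lay below the other 8 there, and without the 4 libraries the differences were -0.02, -0.07, -0.02 and 0.10 for Edc4, Dcp1b, Dcp2 and Lsm7. Tailing and turnover genes numbered 10 tested, of which 7 lay higher and 3 lower. Their median log2 difference was 0.04 and turned to -0.03 with GC correction. The exonuclease gene Eri1 (0.17) and the poly(A) polymerase genes Papd4 (0.21) and Papd7 (0.09) lay higher in miR. Lin28b, whose protein blocks let-7 maturation, lay lower (-0.18), averaging 1.27 ± 0.251 (miR) and 1.51 ± 0.366 RPKM (PBS, SD, n = 6 each). Their adjusted p-values in limma were 0.226, 0.233, 0.249 and 0.415, and without the 4 PBS libraries the differences were 0.06, 0.21, 0.06 and 0.10.

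**Figure D5:**
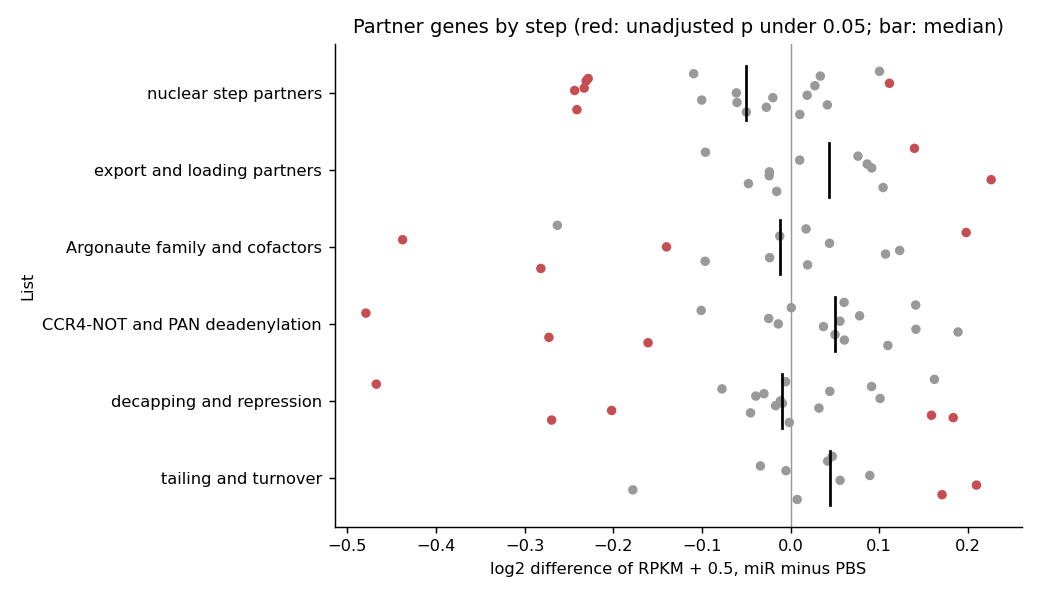
Log2 difference of RPKM + 0.5, miR minus PBS, for the 90 tested partner genes, by step of the pathway. Each point is a gene, red where the unadjusted p in limma is under 0.05, and the black bar is the median of its list. Medians lie between -0.05 and 0.05, and the genes farthest to the left are Pan2 (-0.48), Lsm7 (-0.47) and Mov10 (-0.44).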

How the data were processed

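RNA sequencing of PVN punches gave 1 library per animal, made from 250 ng of total RNA with stranded poly(A) selection and run on 2 lanes, per the labels' protocols. The authors deposited RPKM values for 30399 RefSeq transcript rows. The submitters' processing notes name mm9 and edgeR without their role, while aligner, counter and the use of strand in counting are not given in the sources used. Depth was read from the smallest steps of intronless olfactory receptor rows, and every low value there fell within 2% of whole steps. Whole reads were not restored for longer transcripts, so no count model was used.

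A gene with labelled rows was its labelled row of highest mean. Of 913 rows without a symbol, 454 belonged to genes with labelled rows and were left out. The other rows without a symbol stayed in the gene set, under names taken or made from their transcript identifiers. Values were analysed as log2(RPKM + 0.5) for genes averaging 1 RPKM or more, with limma 3.58.1 in R 4.3.3 (variance trend, 2-sided, Benjamini-Hochberg over 13273 genes, adjusted p under 0.05). Within-library ratios were tested by 2-sided exact permutation. Reads per library behind a gene were estimated from GENCODE M21 transcript length, matched by accession for 98.0% of tested genes. The fit was also run on simulated data with 200 changed genes. It recovered 90% of those changed by a log2 size of 0.5 and 99% of those changed by 1. The false share was 7.80%. Tables and plots were made in Python 3.11.15 with pandas 2.3.3 and matplotlib 3.10.9.

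Named partners are the 4 of smallest p in each list. Trmt2a, Npff, Map3k12 and Mir1306 were named after their values were seen. The members, lists and tests were chosen with earlier results of these data known. Alternatives were other pseudocounts, filters, scalings, variance models, library weights, transcript rows, a covariate and each library left out. Pairs or sets of PBS libraries left out, the GC correction and the use of the 454 rows left out above were added after the data were seen.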

Additional observations from a re-analysis of the deposited data

Results flagged for a closer look

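In PBS replicate 9, Dicer1 at 9.22 RPKM lay far above the next PBS library, at 8.002 RPKM. In the same library Tnrc6c, at 11.6 RPKM, lay far above the next PBS library, at 9.74 RPKM. These were 2 of the 38 sets of 6 values checked (machinery genes, Ago3, Ago4, Mir1306 and the 6 ratios, in each group), where chance marks about 1 in 20.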

How the results depend on the processing

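No paired analysis was possible because the groups share no replicate number. Among machinery genes 0 passed, and 1, Tarbp2, with library weights, without PBS replicates 7 and 11 together, and in 2 fits without a library (range 0 to 1). Over all tested genes the count was 0, but 3035 with library weights (1441 higher, 1594 lower), 3112 without PBS replicates 7 and 11 (1581 higher, 1531 lower), and 0 to 909 with a library left out. Tarbp2 had a lower value in miR in all 26 alternatives that tested it (-0.77 to -0.04, adjusted p 0.000186 to 1.00 in limma) and was called in 4. A filter at 5 RPKM removed it. None of the other 9 members was called in any of 243 alternative values, of which 23 had the opposite sign, and their smallest adjusted p was 0.0809 in limma. GC correction moved the medians of nuclear step partners to -0.12 and of deadenylation genes to -0.036. The latter was 0.014 without PBS replicates 8, 9, 10 and 12, and 0.026 to 0.054 with a library left out. The Tarbp2 to Dicer1 ratio was -0.74 to -0.52 with a library left out and -0.050 without PBS replicates 8, 9, 10 and 12. The Tnrc6a and Tnrc6b shares were at -0.056 and 0.15 on the log2 scale without PBS replicates 7 and 11, a choice made after the shares were seen, so their p under 0.05 there is no support. The cause was not tested. With about 55.4 reads in its shallowest library, Tarbp2 is the member that depth limits most.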

Other observations

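The hairpin of miR-1306 lies inside the Dgcr8 transcript, and the table gives it a row of its own, Mir1306 (chromosome 16, 18284332 to 18284410, minus strand, mm9). It measured 19.7, 20.3, 22.5, 21.7, 21.0 and 22.2 RPKM in miR replicates 1 to 6 and 13.6, 17.7, 19.6, 17.1, 19.9 and 14.5 RPKM in PBS replicates 7 to 12. PBS replicate 11 alone lay inside the miR range, above miR replicate 1. The log2 difference was 0.32 (standard error 0.09, adjusted p = 0.174 in limma), and it did not pass in 11 of the 12 fits with a library left out (0.26 to 0.36, adjusted p up to 0.368 in limma). It passed without PBS replicate 11, the PBS library inside the miR range (0.36, adjusted p = 0.0396 in limma), where 3.23% of all tested genes passed. It also passed with library weights (0.30, adjusted p = 0.0113 in limma) and without PBS replicates 7 and 11 (0.30, adjusted p = 0.0128 in limma). In those fits 22.9% and 23.4% of all tested genes passed. Without PBS replicates 8, 9, 10 and 12 Mir1306 was at 0.35 and with GC correction at 0.44, and it passed in neither. The row is 79 bases long and rests on about 29.7 to 70.1 reads per library. Whether the authors' counting also gave these reads to Dgcr8, whose log2 difference was -0.01, was not tested. The mature arms within the hairpin, from the RefSeq table for GRCm38.p6, are given below. These poly(A) libraries did not assay them as mature microRNAs.
miR-1306-5p: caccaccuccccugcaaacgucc
miR-1306-3p: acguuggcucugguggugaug

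For each member, the tested gene with the nearest profile over the 12 libraries was named by the root mean square distance of centred log2 values. For Tarbp2 it was Fah, which encodes the last enzyme of tyrosine breakdown, at a distance of 0.11, where the spread of Tarbp2 itself was 0.37. Fah measured 11.2, 10.3, 11.8 and 11.4 RPKM in PBS replicates 8, 9, 10 and 12, 7.69 and 6.30 RPKM in PBS replicates 7 and 11, and 6.36 to 8.70 RPKM in miR. Its log2 difference was -0.42 (adjusted p = 0.174 in limma). Without PBS replicates 8, 9, 10 and 12 it was 0.01 (adjusted p = 1.00 in limma, a value all 10 members had in that fit). For the others it was Ulk1 (Drosha), Zmynd11 (Dgcr8), Ikbkap (Xpo5), Zfp317 (Dicer1), Hdac8 (Ago1), Tnr (Ago2), Zzef1 (Tnrc6a), Golga4 (Tnrc6b) and Ift140 (Tnrc6c), at distances of 0.03 to 0.06. Among the members themselves, Dicer1 and Tnrc6a were each other's nearest, as were Ago2 and Tnrc6b, and Dgcr8 and Tnrc6c, at 0.07 in each pair. The nearest member to Tarbp2 was Drosha, at 0.33.

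Among the named partner genes, Papd7 had no overlap between groups, at 10.85 to 12.1 RPKM in miR and 10.1 to 10.84 RPKM in PBS. Of all tested genes 0.497% had none in either direction. Named partners were picked by small p, which favours separated groups, so the comparison with that share is no support. Its adjusted p was 0.249 in limma.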
